A study of Mus musculus with 24 samples.

Results

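The Ugt2 and Ugt3 genes encode UDP-glycosyltransferases, and 10 of them were chosen by gene name: *Ugt2a3*, *Ugt2b1*, *Ugt2b5*, *Ugt2b34*, *Ugt2b35*, *Ugt2b36*, *Ugt2b37* and *Ugt2b38*, and *Ugt3a1* and *Ugt3a2*. All 10 were among the 23972 genes with counts in 24 liver RNA-Seq libraries, and 8 of them had a mean log2 CPM of at least 0 (CPM, counts scaled to a common library size). By the labels and the study's methods, all mice were adult females on a high-fat diet at standard housing temperature. Controls were *Lmna* fl/fl mice without Cre, and *Lmna* ADKO mice were *Lmna* fl/fl with Adipoq-Cre, in which the adiponectin promoter drives Cre in adipocytes, so that *Lmna* is lost from fat and the mice are lipodystrophic, while liver cells are not the target of the deletion. There were 7 vehicle-treated and 3 rescue-treated controls, and 6 vehicle-treated and 8 rescue-treated *Lmna* ADKO mice. The labels call the treatment Rescue. The study gives it as an adeno-associated virus carrying FGF21, a hormone made by liver, injected into the blood, with the viral diluent as vehicle. The questions were how these genes differ between lipodystrophic and control livers, and whether the treatment moves them.

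UDP-glucuronosyltransferases sit in the membrane of the endoplasmic reticulum of hepatocytes and transfer glucuronate from UDP-glucuronate to small lipophilic molecules, among them bilirubin, steroid hormones, bile acids and many drugs. The products dissolve in water and leave with bile or urine. The Ugt1 enzymes come from 1 locus with alternative first exons, whereas the Ugt2b enzymes and *Ugt2a3* each have a gene of their own, and these genes lie side by side. The Ugt3 enzymes are relatives that use other sugars: human UGT3A1 transfers N-acetylglucosamine, and human UGT3A2 transfers glucose and xylose.

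On GRCm38, the 8 Ugt2 genes spanned 534 kb of chromosome 5 and the 2 Ugt3 genes 94.1 kb of chromosome 15, and all 10 are annotated as protein-coding. Along chromosome 5 the order was *Ugt2b34* (chr5:86889767-86906937), *Ugt2b1* (chr5:86916638-86926530), *Ugt2b35* (chr5:87000860-87013275), *Ugt2b36* (chr5:87065927-87092555), *Ugt2b5* (chr5:87124960-87140318), *Ugt2b37* (chr5:87240493-87254804), *Ugt2a3* (chr5:87324972-87337195) and *Ugt2b38* (chr5:87409942-87424203). *Ugt2b35* is transcribed from the plus strand and the other 7 from the minus strand. *Ugt3a1* (chr15:9276888-9315032) and *Ugt3a2* (chr15:9335550-9370955) are both on the plus strand. The cluster on chromosome 5 held 18 other annotated genes, none of them protein-coding, and the 7 of these with counts, mostly pseudogenes, had medians of 0 to 7 reads per library.

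The start regions of these genes are shown because they split the cluster into groups, as a description. The 4 genes listed first below include *Ugt2b5* and *Ugt2b36*, the most abundant Ugt2 genes per length, and *Ugt2b37* and *Ugt2b38*, the least abundant, as given further on. A part of the start regions in these levels was not tested. RefSeq promoter windows (GRCm38.p6, 250 bases before to 50 after the start) were found for 9 of the 10 genes, all but *Ugt3a2*. The last 60 bases before the start are given 5′ to 3′ on the gene's own strand, with the nuclear receptor motif AGGTCA in capitals.
Ugt2b36 (chr5:87092556-87092615, minus): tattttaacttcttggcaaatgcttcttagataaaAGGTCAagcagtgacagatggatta
Ugt2b5 (chr5:87140341-87140400, minus): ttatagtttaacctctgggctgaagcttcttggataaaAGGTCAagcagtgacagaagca
Ugt2b37 (chr5:87254789-87254848, minus): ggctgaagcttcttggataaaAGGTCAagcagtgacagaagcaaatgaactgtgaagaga
Ugt2b38 (chr5:87424204-87424263, minus): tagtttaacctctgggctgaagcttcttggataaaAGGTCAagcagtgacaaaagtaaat
Ugt2b35 (chr5:87000800-87000859, plus): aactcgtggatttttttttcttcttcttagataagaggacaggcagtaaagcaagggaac
In the first 4 genes the motif began 22 to 39 bases before the start, inside a stretch that was nearly shared. The 24 bases of *Ugt2b36* that begin 34 bases before its start were found with at most 1 difference in 4 of 32851 promoter windows, which are those of these 4 genes. *Ugt2b35* carries the stretch at the same distance of 34 bases with 5 differences, and no capitals fall in its window. The stretch was chosen after the sequences were seen, and the best match in the windows of the other 4 genes had 9 or more differences.

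Over the whole windows and on both strands, AGGTCA was in 5 of 9 against 16.3% of all windows, the fifth being *Ugt2b35* at 215 bases before the start. The STAT site TTCNNNGAA (8.30% of all windows), the HNF4 site CAAAGTCCA (0.475%), the xenobiotic response element GCGTG (32.4%) and the antioxidant response element TGACNNNGC (12.4%) were in 0 of 9. These are matches of letters, and no binding was measured.

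The libraries held 19863304 to 21510054 reads counted on genes, so that 3 counts correspond to 0.124 to 0.176 CPM. The hepatocyte markers were high in every library, with *Alb*, serum albumin, at 52493 CPM or more, and the kidney tubule markers *Slc34a1*, *Lrp2* and *Aqp2* had medians of 0 to 0.0207 CPM. *Lmna*, which encodes lamins A and C, had 18.6 CPM ± 2.47 (SD, n = 7) in vehicle-treated control livers and 26.7 ± 2.57 (n = 6) in those of vehicle-treated *Lmna* ADKO mice, or 1.44-fold (adjusted p = 0.00322), so the liver reads do not show the deletion in fat. *Fgf21* did not set the rescue groups apart (in controls 4.78 CPM ± 2.29 with rescue, n = 3, and 4.01 ± 3.18 with vehicle, n = 7, adjusted p = 0.925; in *Lmna* ADKO 5.36 ± 2.41, n = 8, and 7.99 ± 2.48, n = 6, adjusted p = 0.73), so the counts neither bear out nor contradict FGF21 as the treatment, since whether reads of the viral transcript would be counted on *Fgf21* is not given in the sources used here. The treatment is called rescue, as in the labels. In 3 libraries, control vehicle 3, control rescue 3 and *Lmna* ADKO rescue 7, long genes had fewer and short genes more reads than in the others, with slopes of log2 CPM on log2 gene length of -0.154, -0.289 and -0.331 against -0.109 to 0.128. Animal numbers in the labels had 3 digits in 6 of 7 vehicle-treated controls and in 1 of 6 vehicle-treated *Lmna* ADKO mice, and 4 digits in all 3 rescue-treated controls. What the numbers stand for is not given. In bulk tissue, fewer cells of a type and less RNA per cell cannot be told apart.

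*Ugt2b5* and *Ugt2b36* were the most abundant Ugt2 transcripts per length in these livers, *Ugt3a2* was the more abundant Ugt3 transcript, and *Ugt2b37* and *Ugt2b38* were near the floor. On the scale of CPM per kb of exon, the mean level over all 24 libraries was 234 for *Ugt2b5* and 225 for *Ugt2b36*, and these neighbours stood in this order in 17 of 24 libraries, so that they do not differ beyond their spread. *Ugt3a2* followed at 113, below *Ugt2b36* in all 24 libraries. *Ugt2a3* at 76.1 and *Ugt2b34* at 72.8 stood in this order in 12 of 24 libraries, in 7 of 7 vehicle-treated controls (89.9 and 67.7 CPM per kb) and in the other order in 6 of 6 vehicle-treated *Lmna* ADKO livers (68.2 and 84.7). *Ugt2b1* at 52.1 and *Ugt3a1* at 47.8 stood in this order in 15 of 24, and *Ugt2b35* at 24.9 was below *Ugt3a1* in all 24.

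*Ugt2b37* and *Ugt2b38* averaged 0.190 and 0.0636 CPM per kb, and their CPM ran from 0.0499 to 0.741 and from 0 to 0.428. Neither reached 30 reads in any library, so that no fold change is given for them. They share much of their sequence with *Ugt2b5*. Of all stretches of 50 letters in the exons of *Ugt2b38*, 37.4% recurred in another gene of the annotation, most of them in *Ugt2b5*, and the share was 18.3% for *Ugt2b37* and 41.7% for *Ugt2b5*. A read that lies wholly within shared sequence cannot be assigned to 1 gene, while a longer read that reaches into differing sequence may be. The share of reads concerned was not measured. How shared reads were divided is not given in the sources used here. For *Ugt2b35*, *Ugt2b36*, *Ugt2b34* and *Ugt2b1* the share was 1.44% or less, for *Ugt2a3* 4.55%, and for *Ugt3a1* and *Ugt3a2* 7.60% and 7.01%.

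**Figure D1:**
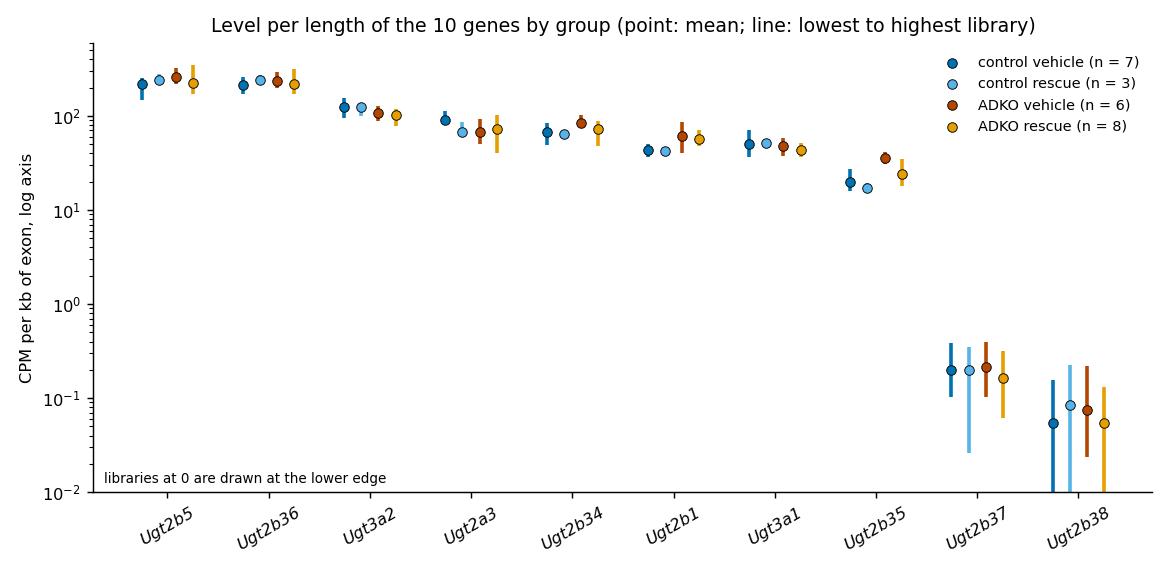
Mean level of each of the 10 genes in CPM per kb of exon (log axis) in the 4 groups, with lines from the lowest to the highest library. *Ugt2b5* and *Ugt2b36* lie at the top, at 215 to 260 in all 4 groups, and *Ugt2b37* and *Ugt2b38* lie under 1.

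*Ugt2b35* was higher in vehicle-treated *Lmna* ADKO livers than in vehicle-treated control livers, and it was the only gene of the 10 called there. Calls required an adjusted p under 0.05 in the fit across the whole table and a fold above 1.5. In the control libraries *Ugt2b35* had between 53.5 and 90.9 CPM with a median of 66.0, and in the *Lmna* ADKO libraries between 105 and 140 CPM with a median of 115. All 6 *Lmna* ADKO libraries were above all 7 control libraries. It was the 1 of the 8 genes above the floor whose groups did not overlap, near the share over the 12492 genes that reach the same mean level, of which 13.9% did not overlap. The means were 66.7 CPM ± 12.5 (SD, n = 7) and 120 ± 15.8 (n = 6), with log2 fold change 0.85 ± 0.13 (SE) with a 95% interval of 0.58 to 1.13, or 1.81-fold (adjusted p = 5.18e-05). The share of genes called was 8.48% of all 23972 genes, 5.12% higher and 3.36% lower, so that 1 of 10 is near the background. The call remained when each library was left out in turn, with log2 fold changes of 0.80 to 0.94, and under each other setting tried, with 0.81 to 0.86.

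Groups and animal numbers overlapped in part, and the values within them are as follows. Among animals with 3-digit numbers, *Ugt2b35* was at 111.9 CPM in the 1 vehicle-treated *Lmna* ADKO mouse and at 53.5 to 90.9 CPM in the 6 vehicle-treated controls. Among those with 4-digit numbers, it was at 105 to 140 CPM in 5 *Lmna* ADKO mice and at 66.0 CPM in the 1 control. With the number series as a covariate over all 24 libraries, taken as the same shift in every group, the log2 fold change was 0.83 ± 0.16 (adjusted p = 0.00135). Without the 3 libraries that stood apart it was 0.81 ± 0.14 (adjusted p = 0.000185).

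**Figure D2:**
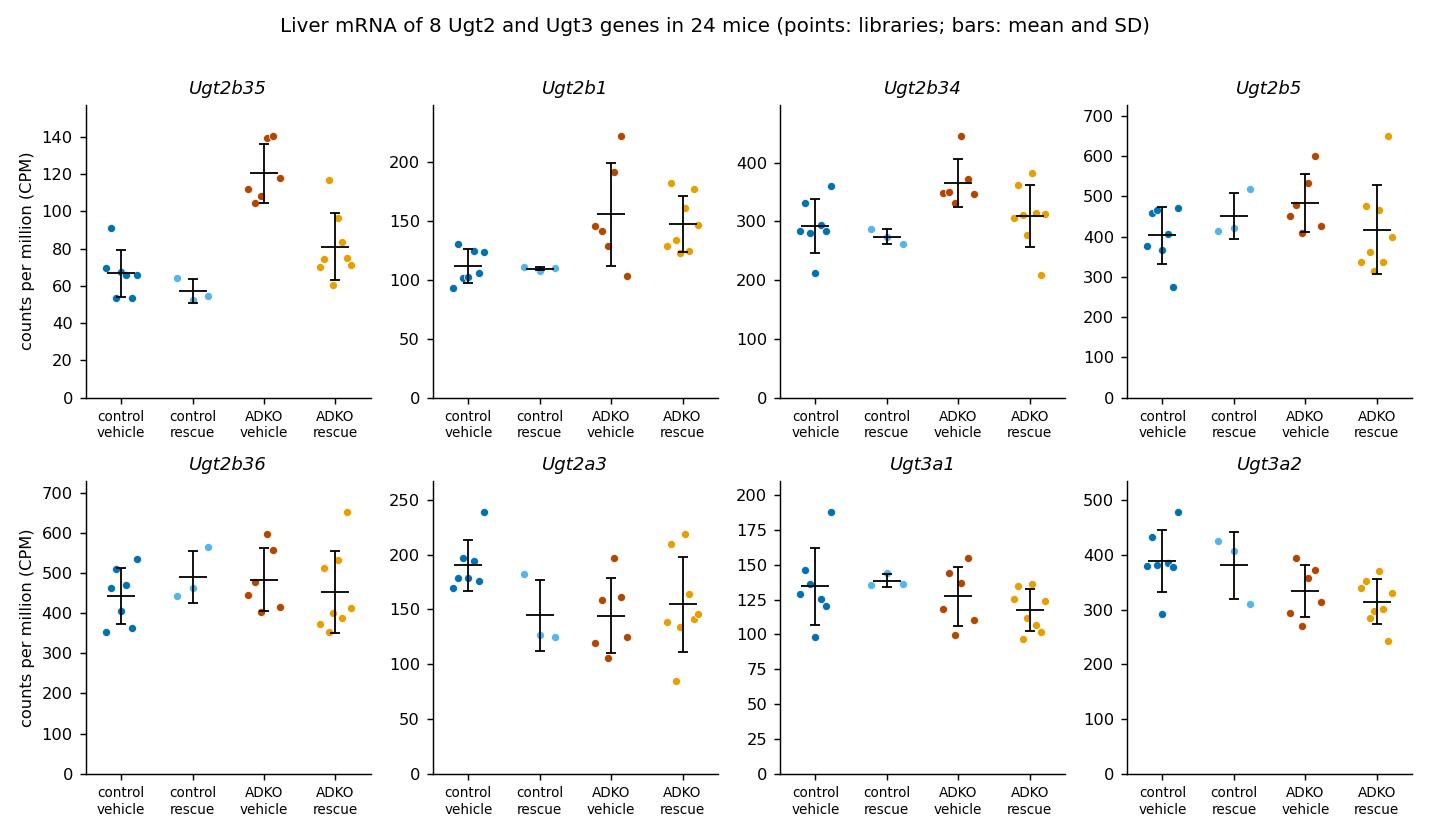
CPM of the 8 genes above the floor in each library (points) with mean and SD (bars), by group, on linear axes from 0. For *Ugt2b35* all 6 vehicle-treated *Lmna* ADKO libraries lie above all 7 vehicle-treated control libraries.

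Next to *Ugt2b35* on the chromosome, and also with little shared sequence, *Ugt2b1* passed the p threshold and not the fold threshold. It ranged from 93.3 to 130 CPM with a median of 105.9 in vehicle-treated controls and from 104 to 222 CPM with a median of 143 in vehicle-treated *Lmna* ADKO livers. The groups overlapped, and 4 of 6 *Lmna* ADKO libraries were above all controls. The means were 112 CPM ± 14.2 (n = 7) and 155 ± 43.4 (n = 6), with log2 fold change 0.48 ± 0.14 or 1.39-fold (adjusted p = 0.0177). With the number series as a covariate it was 0.40 (adjusted p = 0.142). By the adjusted p alone, 2 of 10 genes passed, against 15.1% of all genes.

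*Ugt2b34*, which lies at the end of the cluster beside *Ugt2b1*, had 212 to 360 CPM with a median of 283 in vehicle-treated controls and 332 to 445 CPM with a median of 349 in vehicle-treated *Lmna* ADKO livers. All 6 *Lmna* ADKO libraries were above the control median and 2 of 6 were above all controls. The means were 292 ± 46.2 and 365 ± 41.2 CPM, with log2 fold change 0.32 ± 0.12 (adjusted p = 0.0777). The adjusted p was 0.0301 by DESeq2 on all libraries and 0.0303 by edgeR without the 3 libraries that stood apart, both at the same log2 fold change of 0.32 and a fold under the threshold.

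*Ugt2a3*, whose human counterpart conjugates bile acids, had the lowest log2 fold change of the 8. It ranged from 169 to 239 CPM with a median of 178 in vehicle-treated controls and from 105 to 197 CPM with a median of 142 in vehicle-treated *Lmna* ADKO livers. Of the 6 *Lmna* ADKO libraries, 5 were below all controls. The means were 190 ± 23.5 and 144 ± 33.9 CPM, with log2 fold change -0.40 ± 0.17 (adjusted p = 0.119). Within the 4-digit numbers the 1 control was at 239 CPM and the 5 *Lmna* ADKO libraries at 105 to 197 CPM, and with the number series as a covariate *Ugt2a3* was called lower, with a log2 fold change of -0.60 ± 0.19 (adjusted p = 0.0434).

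The 2 most abundant Ugt2 genes did not pass either threshold between the vehicle-treated groups. *Ugt2b5* had 276 to 471 CPM with a median of 408 in controls and 408 to 599 CPM with a median of 465.6 in *Lmna* ADKO livers, with log2 fold change 0.26 (95% interval -0.05 to 0.57, adjusted p = 0.282). *Ugt2b36* had 354 to 535 CPM with a median of 462 and 404 to 598 CPM with a median of 461, with log2 fold change 0.12 (-0.17 to 0.41, adjusted p = 0.619). Both intervals lie within a fold of 1.5 in either direction. A p that misses the threshold does not show equal levels.

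The Ugt3 genes had log2 fold changes below 0 that did not pass. *Ugt3a2* ranged from 293 to 478 CPM with a median of 382 in vehicle-treated controls and from 271 to 394 CPM with a median of 337 in vehicle-treated *Lmna* ADKO livers, with log2 fold change -0.22 (95% interval -0.47 to 0.03, adjusted p = 0.256). *Ugt3a1* ranged from 98.2 to 188 CPM with a median of 129 and from 99.6 to 155 CPM with a median of 128, with log2 fold change -0.08 (-0.34 to 0.18, adjusted p = 0.742). In both genes the groups overlapped.

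Before adjustment, 4 of the 10 genes had a p under 0.05 between the vehicle-treated groups, against 27.0% of all genes. The median log2 fold change of the 10, the 2 near the floor included, was 0.19, and that of all genes was 0.0027.

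**Figure D3:**
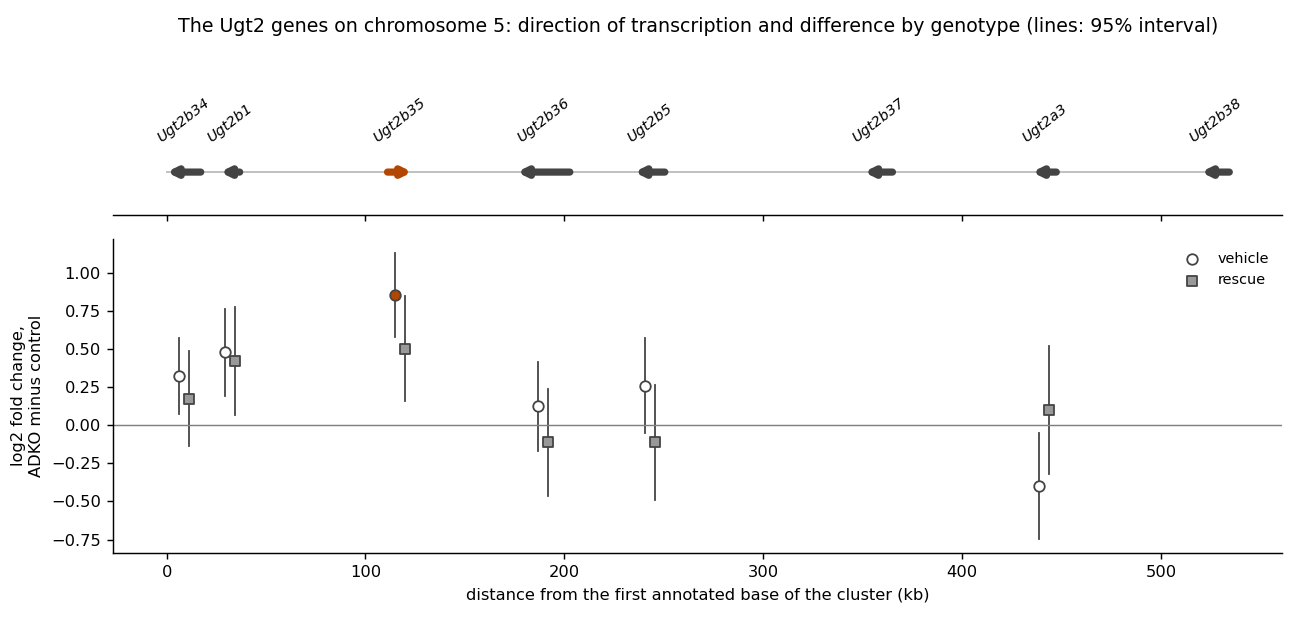
The 8 Ugt2 genes by distance in kb along chromosome 5 (arrows show the direction of transcription), with the log2 fold change of *Lmna* ADKO against control and its 95% interval for vehicle (circles) and rescue (squares), for the 6 genes above the floor. *Ugt2b35*, the gene on the plus strand, is filled as called with vehicle at 0.85. With vehicle, *Ugt2b34* and *Ugt2b1* before it have values of 0.32 and 0.48. *Ugt2b36* and *Ugt2b5* after it have 0.12 and 0.26, and *Ugt2a3*, the last of the 6 genes along the chromosome, has -0.40.

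As a share of the Ugt2 genes' summed level per length, *Ugt2b35* took 3.07% ± 0.57 (n = 7) in vehicle-treated controls and 4.85% ± 0.41 (n = 6) in vehicle-treated *Lmna* ADKO livers, with no overlap (2.24 to 3.81% and 4.25 to 5.44%). *Ugt2a3* took 13.8% ± 1.20 and 9.10% ± 1.04, also with no overlap (11.9 to 15.7% and 7.95 to 10.46%). The abundant genes overlapped, with 29.8 to 34.7% and 30.6 to 32.7% for *Ugt2b36* and 27.96 to 35.3% and 32.2 to 36.5% for *Ugt2b5*. A share also moves with the other genes of the sum, and in CPM the groups of *Ugt2a3* overlapped (169 to 239 and 105 to 197). The shares are descriptions and were not tested. Within the Ugt3 pair, *Ugt3a2* took 71.5% ± 1.42 in vehicle-treated controls and between 69.4 and 70.1% on average in the other 3 groups.

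The 8 Ugt2 genes together had 1508 CPM ± 198 (n = 7) in vehicle-treated controls, 1527 ± 96.8 (n = 3) in rescue-treated controls, 1752 ± 264 (n = 6) in vehicle-treated *Lmna* ADKO livers and 1563 ± 252 (n = 8) in rescue-treated *Lmna* ADKO livers. The Ugt3 pair had 525 ± 83.8, 520 ± 63.0, 462 ± 68.5 and 432 ± 55.2 CPM in the same order. The 10 genes made up 0.168 to 0.262% of all counts. The difference of log2 sums was larger than the SD between libraries for the Ugt2 genes between the vehicle-treated groups (0.21 against 0.20) and for the Ugt3 pair between the rescue-treated groups (-0.27 against 0.19), and smaller in the other 6 of 8 differences. No test was run on sums.

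Among rescue-treated mice, 0 of the 10 genes were called between *Lmna* ADKO and control livers by edgeR and 0 by DESeq2, against 2.88% of all genes by edgeR (3.85% by the adjusted p alone), and 2 had an unadjusted p under 0.05, against 16.9%. Over the whole table of 23972 genes, DESeq2 called 1022. The 3 control libraries had 64.4, 52.6 and 54.7 CPM of *Ugt2b35*, and the 8 *Lmna* ADKO libraries ranged from 60.6 to 117 CPM with a median of 74.8. Of the *Lmna* ADKO libraries, 7 of 8 were above all controls. The means were 57.2 CPM ± 6.29 (n = 3) and 81.0 ± 17.9 (n = 8), with log2 fold change 0.50 ± 0.17 with a 95% interval of 0.16 to 0.85, or 1.42-fold (adjusted p = 0.0926 by edgeR and 0.0431 by DESeq2).

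*Ugt2b1* was at 110.9, 107.8 and 110.0 CPM in rescue-treated controls and at 122 to 182 CPM with a median of 140 in rescue-treated *Lmna* ADKO livers. The groups did not overlap, which held for 1 of the 8 genes and for 8.56% of the 12492 genes. The log2 fold change was 0.42 ± 0.17 or 1.34-fold (adjusted p = 0.191), close to the 0.48 of the vehicle-treated mice, which are other animals. For the other 6 genes the log2 fold changes ran from -0.28 for *Ugt3a2* to 0.17 for *Ugt2b34*, with adjusted p from 0.346 to 0.849. *Ugt2a3*, at -0.40 with vehicle, was at 0.10 ± 0.21 with rescue (interaction 0.50 ± 0.27, adjusted p = 0.984).

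**Figure D4:**
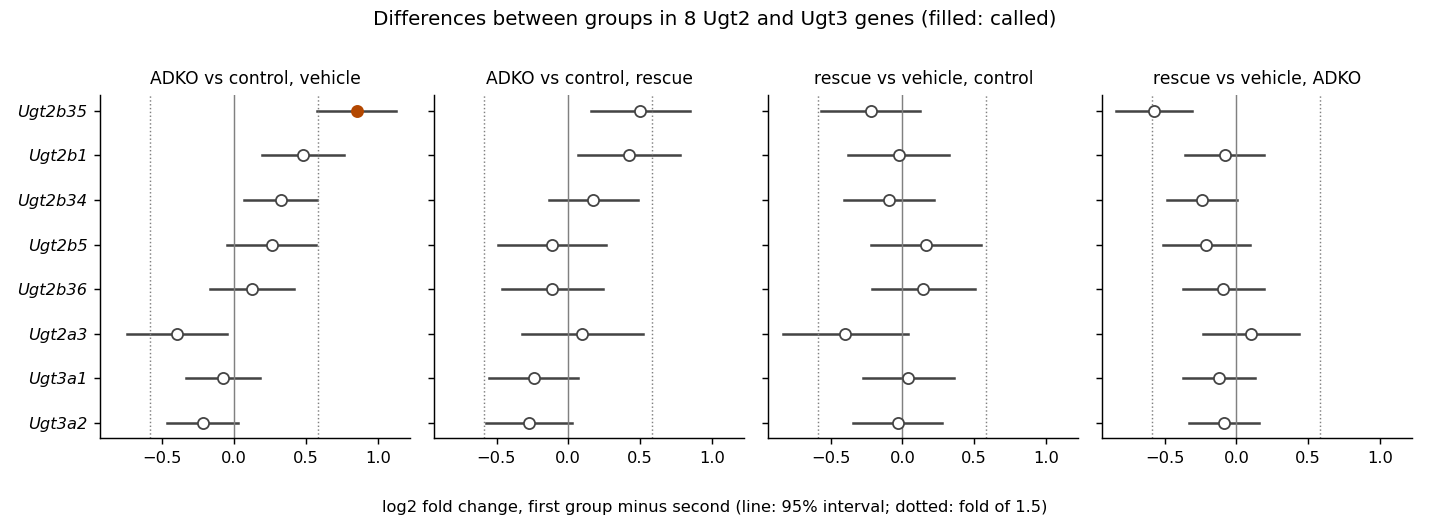
Log2 fold changes of the 8 genes above the floor with 95% intervals in 4 comparisons, each given as first group minus second, with dotted lines at a fold of 1.5. The 1 filled point, *Ugt2b35* at 0.85 in vehicle-treated mice, is the only call. *Ugt2b35* lies at -0.57 for rescue against vehicle in *Lmna* ADKO mice.

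Between rescue and vehicle, each comparison shares its groups with those above. In controls, 0 of the 10 genes were called by edgeR (0.0542% of all genes, with 0.0501% called higher) and 0 by DESeq2, which called 38 of all 23972 genes. None of the 10 had an unadjusted p under 0.05, against 6.16% of all genes. The log2 fold changes of the 8 genes ran from -0.40 for *Ugt2a3* to 0.16 for *Ugt2b5*, with adjusted p from 0.771 to 1. In *Lmna* ADKO mice, 0 of the 10 were called by either tool. By edgeR the share of all genes called was 0%, and DESeq2 called 15 genes. Before adjustment 1 of the 10, *Ugt2b35*, had a p under 0.05, against 6.71% of all genes.

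In *Lmna* ADKO mice, *Ugt2b35* had 105 to 140 CPM with vehicle and 60.6 to 117 CPM with rescue. Of the 8 rescue libraries, 7 were below all 6 vehicle libraries, and rescue 3, at 117 CPM, was not. The log2 fold change was -0.57 ± 0.13 with a 95% interval of -0.84 to -0.31, or 0.673-fold. Its unadjusted p was 0.000128 and its adjusted p over all genes was 0.367 by edgeR, and 0.0258 by DESeq2, where the fold stayed under 1.5. When each of the 24 libraries was left out in turn, the log2 fold change by edgeR ran from -0.67 to -0.52. The adjusted p ran from 0.01 to 0.775. Both lowest values came without rescue 3, the library that went against the direction. Only then was *Ugt2b35* called, as 1 of 61 genes. Within 4-digit animal numbers the 4 rescue libraries had 71.3 to 96.4 CPM and the 5 vehicle libraries 105 to 140 CPM. The corresponding log2 fold change in controls was -0.22 ± 0.17, and the interaction of genotype and treatment was -0.35 ± 0.21 (unadjusted p = 0.106, adjusted p = 0.984), with 0.00417% of all genes called, so that a difference between the genotypes in the response was not shown. Of the 10 genes, 0 had an unadjusted p under 0.05 for the interaction, against 4.86% of all genes, and 0 were called by edgeR or by DESeq2, which called 13 of all 23972 genes for it. For the other 7 genes above the floor, the log2 fold changes of rescue against vehicle in *Lmna* ADKO mice ran from -0.24 for *Ugt2b34* to 0.10 for *Ugt2a3*, with adjusted p from 0.704 to 0.918.

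The levels of 2 pairs of genes moved together from library to library. Over the 24 libraries, log2 CPM of *Ugt2b36*, the Ugt2 gene with the highest mean CPM, had its highest correlation with that of its neighbour *Ugt2b5* among 12492 genes (Pearson's r = 0.896). The next were *Chmp3* (0.866), *Akr1c6* (0.865), *Ndufb3* (0.865) and *Pcnp* (0.856). After the group means were removed, *Akr1c6* (0.915) and *Chmp3* (0.910) stood above *Ugt2b5* (0.904). *Ugt3a2* was most like *Ugt3a1* (0.87, and 0.87 without group means), followed by *Mup10*, *Gphn*, *F13b* and *Oat* (0.83 to 0.86). These are descriptions over libraries that share the length slope named above, and no p is given. In rescue 7 of the *Lmna* ADKO mice, one of the libraries that stood apart, *Ugt2b5* and *Ugt2b36* were at 650 and 652 CPM, the highest of their group, and *Ugt2b34* was at 209 CPM, the lowest. The exons of the former are 1858 and 2059 bases long and those of *Ugt2b34* 4312 bases. The part of the slope in these values was not tested.

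The pattern of *Ugt2b35* was unlike that of the abundant *Ugt2b36* (r = 0.13) and *Ugt2b5* (0.36). It was closer to those of *Ugt2b34* (0.65) and *Ugt2b1* (0.61), at 0.37 and 0.35 when the group means were removed. The genes most like it, looked up after its values were seen, were *Hsd17b4* (0.89), *Entpd5* (0.89), *Ugdh* (0.88), *Cmas* (0.88) and *Gclc* (0.88), and these fell to 0.65 to 0.69 when the group means were removed. *Hsd17b4* encodes a peroxisomal enzyme of fatty acid oxidation, *Entpd5* a nucleotidase of the endoplasmic reticulum that hydrolyses UDP, *Cmas* an enzyme that activates sialic acid, and *Gclc* the catalytic subunit of the first enzyme of glutathione synthesis. *Ugdh* makes UDP-glucuronate.

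*Ugdh* and *Entpd5* were also on a wider list of genes around glucuronidation, and this list was described as a whole. Besides genes of glucuronidation itself it includes genes that supply other sugar nucleotides, other uses of glucuronate, and transcription factors with wider roles. The list held 49 genes other than the 10, of which 47 were in the table. Between vehicle-treated *Lmna* ADKO and control livers 8 were called higher, against 5.12% of all genes, and 6 lower, against 3.36%. Among rescue-treated mice 3 were called higher and 2 lower, against 1.61% and 1.26%. In both comparisons of rescue with vehicle 0 were called by edgeR. The unadjusted p was under 0.05 in 6 genes in controls, against 6.16% of all genes, and in 9 in *Lmna* ADKO mice, against 6.71%. For the parts of the list given next, the shares of all genes called with vehicle are again 5.12% higher and 3.36% lower.

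Of 8 genes that supply sugar nucleotides, 4 were called higher in vehicle-treated *Lmna* ADKO livers and 0 lower, with a median log2 fold change of 0.51. *Ugdh*, UDP-glucose dehydrogenase, makes the sugar donor of the Ugt2 enzymes. It had 51.1 to 104 CPM with a median of 84.9 in vehicle-treated controls and 179 to 202 CPM with a median of 192 in vehicle-treated *Lmna* ADKO livers, with no overlap, with log2 fold change 1.29 ± 0.15 or 2.44-fold (adjusted p = 1.38e-06). In rescue-treated mice the 3 controls ranged from 54.7 to 73.2 CPM and the 8 *Lmna* ADKO livers from 86.2 to 172 CPM, with log2 fold change 1.06 ± 0.20 (adjusted p = 0.00244).

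*Entpd5*, which removes the UDP that the transferases release, was 1.78-fold higher with vehicle (185 CPM ± 22.1, n = 7, and 330 ± 38.7, n = 6, adjusted p = 5.22e-05). It was not called with rescue (log2 fold change 0.51, adjusted p = 0.076). *Pgm3* and *Gfpt1* belong to the pathway that makes UDP-N-acetylglucosamine. *Pgm3* was 2.98-fold higher with vehicle (adjusted p = 5.6e-08) and 3.81-fold higher with rescue (adjusted p = 2.2e-06), and *Gfpt1* was 1.70-fold higher with vehicle (adjusted p = 0.00121). *Gfpt1* was not called with rescue (log2 fold change 0.64, adjusted p = 0.0696). *Slc35d1*, which carries UDP-glucuronate into the endoplasmic reticulum, *Ugp2*, which makes UDP-glucose, *Uap1* and *Gnpnat1* were not called.

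Of 10 other UDP-glycosyltransferases in the table, 1 was called higher and 1 lower with vehicle. *Ugt1a1*, the enzyme that conjugates bilirubin, was lower with vehicle (1150 CPM ± 272, n = 7, and 733 ± 142, n = 6, log2 fold change -0.65 ± 0.15, adjusted p = 0.00404) and with rescue (-0.65 ± 0.18, adjusted p = 0.0371). *Ugt1a6b*, which conjugates phenols, was higher with vehicle (85.3 to 140 and 141 to 175 CPM, log2 fold change 0.59 ± 0.12, adjusted p = 0.00076). It was not called with rescue (0.26, adjusted p = 0.378). The Ugt1a genes share all exons but the first, so that reads of 1 cannot be fully told from those of another.

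*Gusb*, the lysosomal glucuronidase that removes glucuronate, was 1.81-fold higher with vehicle (27.8 CPM ± 2.03, n = 7, and 50.3 ± 3.11, n = 6, adjusted p = 1.45e-07), as 1 of 3 genes of hydrolysis. With rescue it was 1.45-fold higher and not called, as the fold stayed under 1.5 (adjusted p = 0.00461). Of 7 carriers of conjugates, 2 were called higher with vehicle. *Abcg2*, an exporter of the bile canaliculus, was 3.34-fold higher (22.7 CPM ± 3.44 and 75.9 ± 9.81, adjusted p = 5.41e-08) and with rescue 2.19-fold higher (adjusted p = 0.00247). *Abcc4*, an exporter towards blood, was 1.81-fold higher with vehicle at a low level (4.07 CPM ± 1.03 and 7.36 ± 1.82, adjusted p = 0.0143), and its log2 fold change with rescue was -0.039 (adjusted p = 0.985). The interaction for *Abcc4* was -0.89 (unadjusted p = 0.0238, adjusted p = 0.984). Of 6 genes of other uses of glucuronate, only *Rgn*, an enzyme of vitamin C synthesis, was called with vehicle, as lower (log2 fold change -0.93 ± 0.22, adjusted p = 0.0047). It was not called with rescue (-0.25, adjusted p = 0.678). Others passed the adjusted p with vehicle at a fold under 1.5. *Gulo* was lower (-0.55, adjusted p = 0.00171), and *Akr1a1* (0.42, adjusted p = 0.00689) and *Uxs1* (0.45, adjusted p = 0.0181) were higher.

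Of 13 transcription factors known to act on such genes or on sex-dependent liver genes, 0 were called higher and 4 lower with vehicle. *Nr1i3*, which encodes the xenobiotic receptor CAR, was at 446 CPM ± 140 (n = 7) and 222 ± 67.7 (n = 6), with log2 fold change -1.004 ± 0.21 (adjusted p = 0.00157), and it was also lower with rescue (-1.30 ± 0.24, adjusted p = 0.00233). *Esr1*, the estrogen receptor, differed by a log2 fold change of -0.67 ± 0.18 (adjusted p = 0.0116). It was not called with rescue (-0.67, adjusted p = 0.0749). *Cux2*, a factor known from female liver, had 32.4 to 76.6 CPM in vehicle-treated controls and 0.417 to 5.16 CPM in vehicle-treated *Lmna* ADKO livers, with log2 fold change -4.58 ± 0.75 (adjusted p = 0.000261). With rescue its log2 fold change was -2.19 ± 0.69 (adjusted p = 0.0812).

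**Figure D5:**
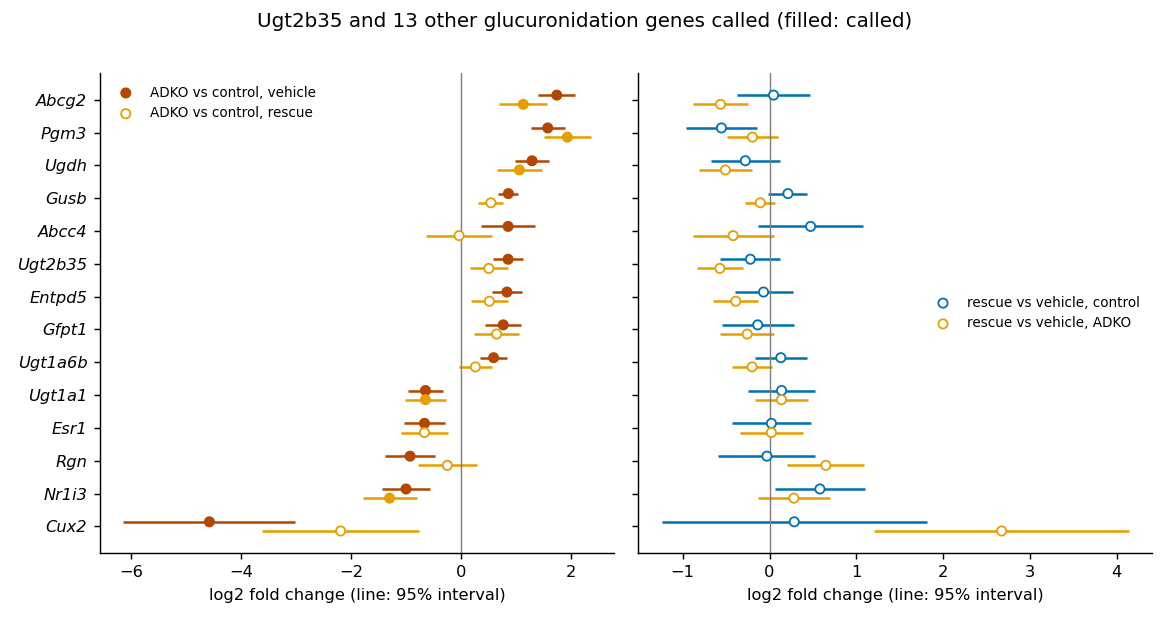
Log2 fold changes with 95% intervals of *Ugt2b35* and 13 genes of the wider list around glucuronidation called in at least 1 comparison, for genotype (left) and rescue against vehicle (right), with filled points for calls. *Ugdh*, *Pgm3* and *Abcg2* are filled in both genotype comparisons on the higher side and *Nr1i3* and *Ugt1a1* on the lower side, and no point is filled on the right.

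Markers of cell types moved between the vehicle-treated groups as well. The summed level of 9 hepatocyte markers was 85707 to 141249 CPM with a median of 116117 in controls and 72763 to 107611 CPM with a median of 93421 in *Lmna* ADKO livers, and 2 of 9, *Cps1* and *Serpina1a*, were called lower. Of the others, *Fga* (log2 fold change -0.51, adjusted p = 0.02) and *Asgr1* (-0.45, adjusted p = 0.015) passed the adjusted p on the lower side. *Apob* (0.37, adjusted p = 0.0215) passed it on the higher side, all at a fold under 1.5. The summed level of 5 cholangiocyte markers was 27.0 to 51.2 CPM and 85.8 to 196 CPM in the same groups (1 of 5 called, *Spp1*). Most of this sum was *Spp1*, with a median of 55.2 CPM over all libraries. *Krt19*, *Krt7*, *Epcam* and *Sox9* had medians of 0.895 to 2.26 CPM, and none of them was called. The 7 stellate cell and fibroblast markers summed to 219 to 313 CPM and 296 to 433 CPM (3 of 7 called, *Col3a1*, *Lrat* and *Acta2*). *Dcn* (0.46, adjusted p = 0.000878) passed the adjusted p with a fold under 1.5, and *Col1a1* (1.46), *Des* (-0.27) and *Reln* (-0.20) did not pass. The 6 macrophage markers summed to 549 to 753 CPM and 402 to 716 CPM, the 6 lymphocyte markers to 4.82 to 11.6 CPM and 4.10 to 10.3 CPM, and the 5 endothelial markers to 194 to 244 CPM and 178 to 228 CPM. Of the endothelial markers, *Lyve1* was called higher (log2 fold change 1.93). *Pecam1* (0.30, adjusted p = 0.0268) and *Stab2* (-0.30, adjusted p = 0.0482) passed the adjusted p in opposite directions with a fold under 1.5, and *Clec4g* (-0.42) and *Kdr* (-0.27) did not pass. Of 3 intestinal markers, *Fabp2* was called higher, and *Vil1* and *Lct* had medians of 0.193 and 0 CPM. Of 5 adipocyte markers, *Cidec* was called higher, and *Adipoq*, *Plin1*, *Lep* and *Retn* had medians of 0 CPM. The part of these shifts in the values of *Ugt2b35*, *Ugdh* and the other genes was not tested.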

How the data were processed

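Liver polyA RNA of 24 female mice was sequenced in strand-specific libraries. The authors deposited counts of reads per gene with no normalization, and all values are whole numbers. The submitters' processing notes name cutadapt 4.8, FastQC 0.11.8, STAR 2.7.8a, RSEM 1.3.3 and GRCm38, without their roles. If RSEM gave the counts, reads shared by similar genes were divided by its model and rounded. The methods name Ensembl 102 and DESeq2. All 23972 genes in the table were tested.

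TMM factors scaled the libraries, and the quasi-likelihood F-test of edgeR 4.0.16 (R 4.3.3, robust fitting) was applied to all 4 groups together, without covariates. P-values were adjusted by Benjamini-Hochberg over all genes, and called genes had an adjusted p under 0.05 and a fold change above 1.5. The ± after a log2 fold change is its standard error, and after a level the SD. CPM were computed on TMM-scaled totals, and log2 CPM with a prior count of 2. Totals ran from 19863304 to 21510054 counted reads, where 3 counts are 0.124 to 0.176 CPM. Of 67 pairs of libraries within groups, none agreed within sampling noise (chi-square per degree of freedom of 14.1 or more), and p-values measure the spread between these mice. Libraries are numbered within a group in the order of the animal numbers in the labels. Alternatives were DESeq2 1.42.0, its size factors in edgeR, filterByExpr, only the groups compared, the number series or the length slope as a covariate, omission of the 3 libraries that stood apart and of each library in turn, and the adjusted p alone. Exon lengths and positions come from GENCODE M21, which holds 23926 of the genes, and promoter sequences from RefSeq (GRCm38.p6). The fits were also run on counts simulated for all genes, with the same spread for every gene and no libraries that stood apart. The 10 genes, the lists and the tests were chosen with earlier results of these data known. Named genes were the 10, every gene of the wider list around glucuronidation that was called in a comparison of 2 groups, the 5 genes most like the most abundant Ugt2 and Ugt3 gene, and *Lmna* and *Fgf21* as checks. Cell type lists are given by counts and ranges. The values of 1 called transcription factor and 1 motif are not reported here.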

Additional observations from a re-analysis of the deposited data

How the results depend on the processing

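Between the vehicle-treated groups, 2 genes in place of 1 were called with the number series as a covariate (*Ugt2a3* joined *Ugt2b35*) and 2 by the adjusted p alone (*Ugt2b1* joined). For rescue against vehicle in *Lmna* ADKO mice, leaving out each library gave 0 to 1 called genes. The other 37 of 39 counts of called genes under such settings and 119 of 120 with a library left out did not move, nor did the summed levels by more than the SD between libraries. The fit of only the groups compared could not be made for the interaction.

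Log2 fold changes that turned in sign were near 0 and were not called under any of these settings. With the number series as a covariate they were -0.048 for *Ugt2b36* between the vehicle-treated groups, 0.0085 for *Ugt2b5* and 0.0093 for *Ugt2b36* between the rescue-treated groups, -0.055 for *Ugt2b5*, -0.069 for *Ugt2b36* and -0.099 for *Ugt3a1* for rescue in controls, and 0.088 for *Ugt2b1*, 0.057 for *Ugt2b36*, 0.039 for *Ugt3a1* and 0.084 for *Ugt3a2* for the interaction. For rescue in controls, *Ugt3a2* was 0.016 with the length slope and 0.090 without the 3 libraries that stood apart. When single libraries were left out, *Ugt3a1* ran from -0.14 to 0.018 between the vehicle-treated groups. For rescue in controls, *Ugt2b1* ran from -0.065 to 0.015, *Ugt3a1* from -0.023 to 0.14 and *Ugt3a2* from -0.12 to 0.094. For rescue in *Lmna* ADKO mice *Ugt2b1* ran from -0.17 to 0.049, and for the interaction *Ugt2b1* ran from -0.15 to 0.075 and *Ugt3a2* from -0.18 to 0.030. The cause was not tested.

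No paired analysis was possible because the labels give each mouse a number of its own and no number recurs between groups. The 3 control libraries with rescue limit the comparisons that use them. *Ugt2b37* and *Ugt2b38* have too few reads for a fold change. Genotype and animal number series overlap in the vehicle-treated groups, where 1 mouse stands in each of 2 cells. The covariate fit used all 24 libraries and assumed the same shift between the series in every group. It therefore also rests on the rescue-treated *Lmna* ADKO mice, 4 with 3-digit and 4 with 4-digit numbers.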
